A study of Homo sapiens with 25 samples.

Results

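Open chromatin after 72 h of THC (tetrahydrocannabinol, a cannabinoid of the cannabis plant) was compared with open chromatin after 24 h in HEC-1A cells. HEC-1A is an established epithelial cell line that was derived from an endometrial carcinoma of a patient. The comparison rests on 6 of the 25 samples of the series, namely 3 ATAC-seq libraries at 72 h (20 µM THC) and 3 at 24 h (20 µM THC), all labelled WT. Untreated ATAC-seq libraries (n = 3, no time in the labels), H3K4me3 CUT&RUN libraries (3 with 20 µM THC, for which the labels give no time, and 3 untreated) and RNA-seq libraries (3 each at 72 h, at 24 h and untreated) were set beside them, and 1 IgG library was not analysed here. ATAC-seq inserts sequencing adapters into DNA that is not covered by nucleosomes, and the deposited files give 1 list of peaks per library with no read counts, so depth is unknown. The labels call the replicates biological but do not say that they came from separate cultures, so the p-values measure the spread between these libraries, which may be technical. All libraries come from 1 cell line, and cell number cannot be told apart from signal per cell.

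The peaks on chromosomes 1 to 22 and X were merged over the 6 lists into 141774 regions when all peaks were used. Lists of unequal length cannot hold the same number of regions, so each was also cut to its best 38495 peaks by -log10 p, the length of the shortest list, which gave 69157 regions. A region was called gained when all 3 libraries at 72 h and none of the 3 at 24 h listed it, and lost when none at 72 h and all 3 at 24 h did. These calls describe presence in lists and carry no test.

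In open chromatin, promoters of active genes stay free of nucleosomes and are flanked by nucleosomes with H3K4me3, a histone mark of active promoters. Enhancers lie farther from gene starts and open in response to signals through factors such as AP-1, while centromeric repeats are usually packed as closed chromatin. The title of the series names ARID1A, a subunit of the SWI/SNF complex, which moves nucleosomes and keeps many enhancers open.

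Promoter sequences are given for 6 genes that the results below turn on, because a called region overlapped the start of each of them. PHF10, a SWI/SNF subunit, and IFITM3, an interferon-induced membrane protein that blocks virus entry, had gained regions. MAB21L4, FRMD8, ABL2 and PADI1 had lost regions. Each line holds the 250 bases before the gene start, 5′ to 3′ on the strand of the gene, from the promoters of RefSeq (GRCh38.p14). Capitals mark the letters of any searched motif on either strand, and neighbouring motifs may share bases or join into 1 run.
PHF10: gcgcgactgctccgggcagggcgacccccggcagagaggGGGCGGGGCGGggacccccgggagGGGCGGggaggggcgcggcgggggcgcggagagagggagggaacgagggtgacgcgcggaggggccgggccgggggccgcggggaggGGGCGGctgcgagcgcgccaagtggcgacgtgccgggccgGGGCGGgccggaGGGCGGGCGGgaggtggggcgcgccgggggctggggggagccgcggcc
IFITM3: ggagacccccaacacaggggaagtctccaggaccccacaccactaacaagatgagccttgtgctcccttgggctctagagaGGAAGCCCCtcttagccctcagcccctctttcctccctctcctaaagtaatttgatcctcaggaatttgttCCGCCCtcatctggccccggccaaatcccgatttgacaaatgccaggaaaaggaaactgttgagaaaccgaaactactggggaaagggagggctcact
MAB21L4: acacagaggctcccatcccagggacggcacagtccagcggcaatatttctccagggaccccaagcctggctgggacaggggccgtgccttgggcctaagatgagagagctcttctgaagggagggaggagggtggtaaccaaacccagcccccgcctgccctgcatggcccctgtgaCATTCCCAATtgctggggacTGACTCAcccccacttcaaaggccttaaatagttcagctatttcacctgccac
FRMD8: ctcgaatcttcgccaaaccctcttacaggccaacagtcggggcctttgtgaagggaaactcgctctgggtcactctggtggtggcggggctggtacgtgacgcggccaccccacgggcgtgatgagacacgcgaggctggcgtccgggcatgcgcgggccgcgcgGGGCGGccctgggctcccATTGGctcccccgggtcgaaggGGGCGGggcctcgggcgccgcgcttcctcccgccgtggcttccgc
ABL2: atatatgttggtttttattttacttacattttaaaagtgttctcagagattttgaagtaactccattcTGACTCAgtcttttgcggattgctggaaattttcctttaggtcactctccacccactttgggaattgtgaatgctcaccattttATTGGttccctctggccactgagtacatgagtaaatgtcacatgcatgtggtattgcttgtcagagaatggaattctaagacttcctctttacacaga
PADI1: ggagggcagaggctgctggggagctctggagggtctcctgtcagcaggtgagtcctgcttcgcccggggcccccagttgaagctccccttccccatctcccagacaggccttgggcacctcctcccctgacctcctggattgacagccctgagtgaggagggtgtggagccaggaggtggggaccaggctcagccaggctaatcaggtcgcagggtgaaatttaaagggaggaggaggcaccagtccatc

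The PHF10 stretch lies at chr6:169724501-169724750 on the minus strand and matched the GC box (GGGCGG, bound by SP and KLF factors) at 7 places. The IFITM3 stretch at chr11:320861-321110, minus strand, matched the GC box and the NF-kB core (GGGNNTTCC). The MAB21L4 stretch at chr2:240896157-240896406, minus strand, held the AP-1 core (TGANTCA), the CCAAT box and the TEAD core (GGAATG), the CCAAT box and the TEAD core overlapping. The FRMD8 stretch at chr11:65386387-65386636, plus strand, had the GC box at 2 places and the CCAAT box. The ABL2 stretch at chr1:179143077-179143326, minus strand, held the AP-1 core and the CCAAT box. None of the 9 searched motifs was found in the PADI1 stretch at chr1:17204878-17205127, plus strand. The called region covered all 250 printed bases for PHF10 and IFITM3, 126 for MAB21L4, 147 for FRMD8, 138 for ABL2 and 143 for PADI1.

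Across 34961 RefSeq promoters of the chromosomes used, 42.7% held the GC box, 32.0% the CCAAT box, 6.54% the AP-1 core, 11.9% the TEAD core and 5.79% the NF-kB core. Of 154 promoters of the 96 genes with a lost region at a start, in either kind of list, 47.4% held the GC box, 26.6% the CCAAT box, 4.55% the AP-1 core, 12.3% the TEAD core and 7.79% the NF-kB core. Of 43 promoters of the 25 genes with a gained region, 51.2% held the GC box, 18.6% the CCAAT box, 16.3% the TEAD core, 6.98% the E-box, 6.98% the ETS core, and 1 each held the AP-1 and NF-kB cores. The E-box (CACGTG) stood in 5.84% of the promoters at lost regions and 6.35% of all, the ETS core (CCGGAAG) in 6.49% and 8.52%, the FOX core (TGTTTAC) in 3.90% and 2.98%, and the CRE core (TGACGTCA) in 2.60% and 1.65%. These shares are descriptions of letters in a fixed window.

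The 6 lists differed in length within each time. At 72 h they held 51017, 38495 and 80773 peaks, against 62064, 57356 and 78290 peaks at 24 h, so the times overlapped. The median peak was 345, 246 and 206 bases wide at 72 h, against 162, 220 and 209 bases at 24 h. Replicate 1 at 72 h had the widest peaks and replicate 2 the shortest list, while replicate 3 resembled the libraries at 24 h in both. In equal-length lists 27.6% ± 1.95 of peaks lay within 1000 bases of a gene start at 72 h, against 29.9% ± 1.02 at 24 h (SD, n = 3 each; exact two-sided permutation test, p = 0.2). The share of peaks under H3K4me3 of THC-treated cells was 58.1, 49.1 and 64.3% at 72 h, against 65.8, 63.4 and 65.5% at 24 h (exact permutation test, p = 0.2). Replicates 1 and 2 at 72 h lay below all 3 libraries at 24 h, and replicate 3 lay among them.

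With 3 libraries against 3 the smallest p an exact two-sided test can give is 0.1, and 13 measures were tested. That smallest value was reached by 2 of them. The first was the share of peaks in gene-free stretches, the longest stretch between neighbouring RefSeq genes on each chromosome, which on chromosomes such as 1, 5, 11 and 19 holds the centromere. In equal-length lists it was 3.34, 4.81 and 1.04% at 72 h, against 0.782, 0.985 and 0.751% at 24 h (exact permutation test, p = 0.1, Benjamini-Hochberg adjusted p = 0.52), and 0.340, 0.818 and 0.470% among as many top peaks of untreated libraries. All 3 libraries at 72 h were above all 3 at 24 h, but replicate 3 by little. The second was the share of peaks in any region of the untreated libraries, which averaged 80.8% ± 1.77 at 72 h and 84.4% ± 1.63 at 24 h in full lists (exact permutation test, p = 0.1, adjusted p = 0.52). In equal-length lists that share was 91.5, 81.6 and 98.3% at 72 h, against 97.4, 96.5 and 98.9% at 24 h (exact permutation test, p = 0.3).

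**Figure D1:**
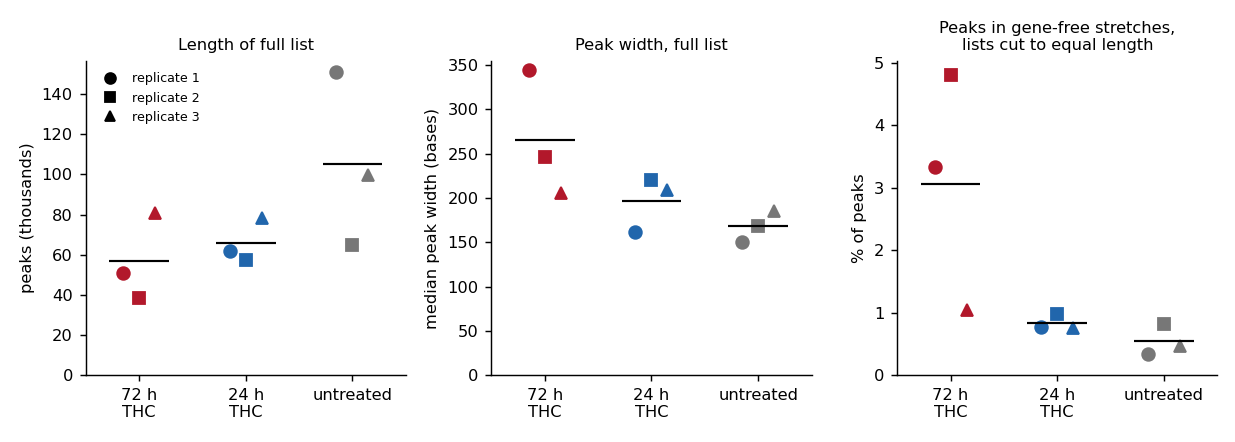
Peak lists of the 9 ATAC-seq libraries: number of peaks, median peak width in bases, and % of peaks in the longest gene-free stretch of each chromosome (each list cut to 38495 peaks). Points are libraries, shapes are replicate numbers and black lines are group means. In the third panel replicates 1 and 2 at 72 h stand at 3.34 and 4.81%, and the other 7 libraries between 0.340 and 1.04%.

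Most regions that every library of 1 time listed were also listed at the other time. In equal-length lists, 20865 regions were listed by all 3 libraries at 72 h, of which 89.7% were listed by all 3 at 24 h as well, 9.13% by 1 or 2 of them and 1.12% by none. All 3 libraries at 24 h listed 26726 regions, of which 70.1% were listed by all 3 at 72 h, 28.4% by 1 or 2 of them and 1.58% by none. The regions listed by all 6 numbered 18726, with a median length of 696 bases. Of these, 44.1% lay at a gene start, 81.2% overlapped H3K4me3 of THC-treated cells and 99.4% were listed by all 3 untreated libraries. At the other end, 24701 of the 69157 regions were listed by a single library, of which 5.32% lay at a gene start.

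**Figure D2:**
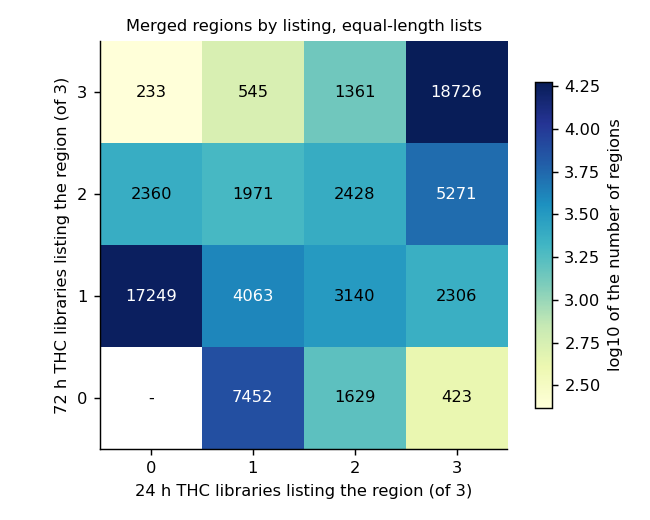
Number of merged regions by how many of the 3 libraries at 72 h (vertical) and at 24 h (horizontal) listed them, equal-length lists, with colour on a log10 scale. The corner of regions listed by all 6 holds 18726, against 233 gained and 423 lost regions, and 17249 regions were listed by 1 library at 72 h and none at 24 h.

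Pairs of libraries were compared by the regions they have in common, without a test. Of the regions in either of 2 equal-length lists, both lists held 47.3, 56.1 and 44.1% for the 3 pairs within 72 h and 63.5, 68.7 and 66.6% for the 3 pairs within 24 h. The 9 pairs between the times ranged from 42.9 to 73.4%, with a median of 55.9%. Replicate 3 at 72 h had 67.6, 65.2 and 73.4% in common with the 3 libraries at 24 h, and 56.1 and 44.1% with the other libraries at 72 h. Spearman's rho of the ranks over the 18726 regions listed by all 6 is a description across regions that share libraries. It was 0.60 to 0.64 within 72 h, 0.70 to 0.78 within 24 h and 0.53 to 0.87 between the times. Replicate 2 at 72 h lay farthest from the others, with 42.9 to 47.3% of regions in common with any of the other 5.

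**Figure D3:**
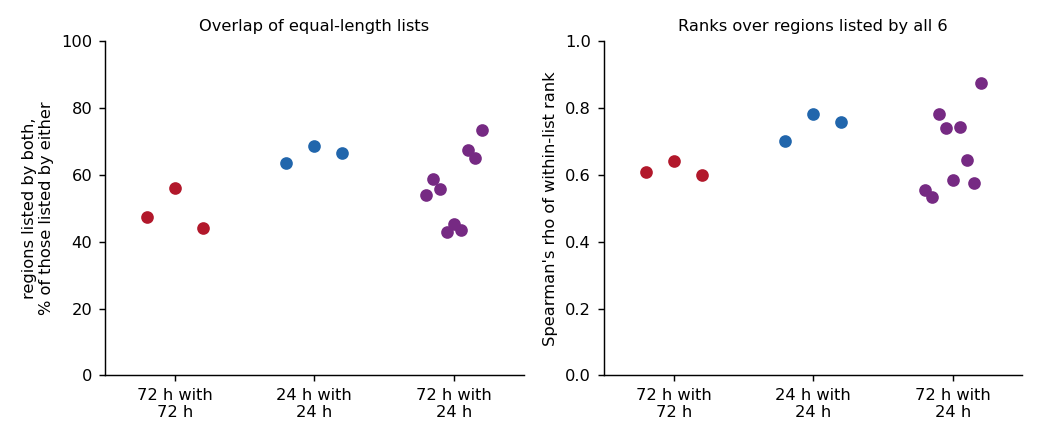
Each point is a pair of ATAC-seq libraries, within 72 h, within 24 h or between the times. Left, % of regions in either equal-length list that both lists hold; right, Spearman's rho of within-list rank over 18726 regions. Pairs between the times reach 73.4% and a rho of 0.87, above every pair within 72 h.

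The strength of the shared regions was compared through their rank within each list, since the values of peak callers are not on 1 scale across lists. With limma on normal scores of the ranks, a test chosen after seeing the data, 0 of 18726 regions (0.0%) passed an adjusted p of 0.05 in either direction, and 981 (5.24%) had an unadjusted p under 0.05. On the log2 number of bases covered by peaks, limma again called 0, with 326 regions (1.74%) at an unadjusted p under 0.05. Without replicate 3 at 72 h, the ranks still gave 0 calls, with 2084 regions at an unadjusted p under 0.05 and a lowest adjusted p of 0.0892, against 0.897 with all 6 libraries.

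Gained regions numbered 263 of 141774 (0.186%) in full lists and 233 of 69157 (0.337%) in equal-length lists. Lost regions numbered 780 (0.55%) and 423 (0.612%). The kind of list decided most of these calls: 28 gained and 138 lost regions of the equal-length lists were also called in full lists, which is 10.6% and 17.7% of the calls in full lists. Of the 233 gained regions, 70 were in fact listed by all 3 full lists at 24 h, below the length cut. The calls are sensitive to single libraries by construction, since a region must be listed by every library of 1 time. Leaving out replicate 3 at 72 h gave 2037 gained and 2272 lost regions in equal-length lists.

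Gained and lost regions differed in length and place from regions listed by all 6. In equal-length lists gained regions had a median length of 473 bases, lost regions 173 bases and all regions 302 bases. Called regions are merged from peaks of 1 time alone, so their length also depends on the peak widths of that time. The median peak of these lists was 385, 246 and 286 bases wide at 72 h, against 198, 259 and 303 bases at 24 h. Gene starts were touched by 7.59% of gained and 10.9% of lost regions, against 44.1% of the regions listed by all 6 and 18.6% of all regions. H3K4me3 of THC-treated cells overlapped 22.7% of gained and 43.5% of lost regions, against 43.1% of all regions. Regions neither called nor listed by all 6 stood at 9.07% and 28.9%, so a low share at gene starts is not particular to called regions. In full lists the contrast was wider, with H3K4me3 at 3.42% of gained and 35.9% of lost regions and at 24.7% of all. There, H3K4me3 overlapped 15.2% of the regions neither called nor listed by all 6. All 3 untreated libraries listed 54.5% of gained and 69.5% of lost regions in equal-length lists, against 58.7% of all regions. In full lists they listed 29 of 263 gained and 312 of 780 lost regions, against 31.03% of all regions. For regions neither called nor listed by all 6 the shares were 43.4% in equal-length lists and 18.7% in full lists.

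**Figure D4:**
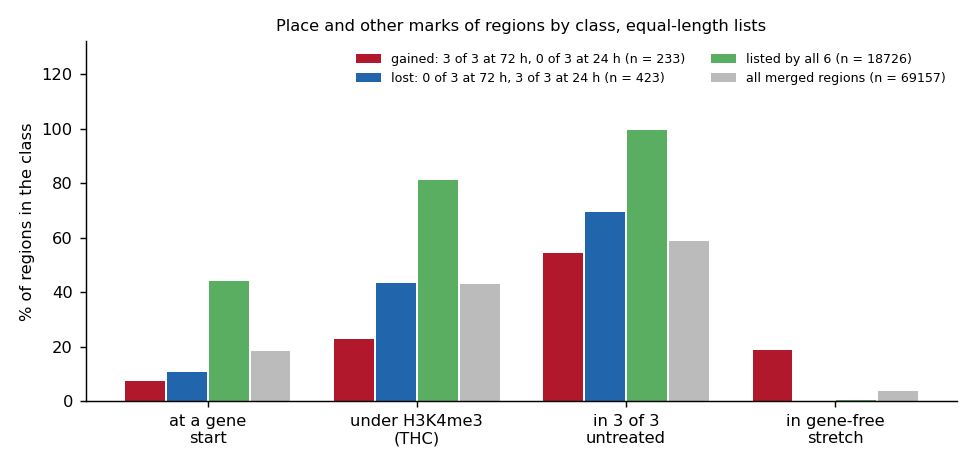
Share of gained, lost, shared and all merged regions of equal-length lists (bars, %) that lie within 1000 bases of a gene start, overlap H3K4me3 peaks of any THC-treated library, are listed by all 3 untreated ATAC-seq libraries, or lie in the longest gene-free stretch of a chromosome. Gained regions have the highest share in gene-free stretches, 18.9% against 3.75% of all regions.

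The gene-free stretches held 44 of 233 gained regions (18.9%) and 1 of 423 lost regions in equal-length lists, against 3.75% of all regions. In full lists they held 56 of 263 gained regions (21.3%) and 2 of 780 lost regions, against 2.54%. Those of the full lists stood together on a few chromosomes. There were 17 on chromosome 11 between 51.27 and 54.24 Mb, 11 on chromosome 5 between 47.67 and 49.07 Mb, 10 on chromosome 19 between 25.06 and 27.18 Mb and 8 on chromosome 1 between 121.8 and 124.6 Mb (GRCh38). None of the 56 overlapped H3K4me3 of THC-treated cells, and 47 were listed by 0 of 3 untreated libraries, against 31 of the 207 gained regions elsewhere. Those lists hold few peaks in the stretches, 0.0111 to 0.0145% of THC H3K4me3 peaks and 0.301 to 1.13% of untreated ATAC-seq peaks. A lack of H3K4me3 was thus nearly fixed by the place, and the same shares over all regions in the stretches are not given here. Of the 10 gained regions that the rule for named regions picked in equal-length lists, 3 of the 5 best-ranked lay here. One was chr5:48178423-48178663, with -log10 p of 14.5, 13.8 and 6.94 at 72 h and no peak in any full list at 24 h or of untreated cells. Another was chr19:26723536-26723768, at 12.4, 10.7 and 7.37 at 72 h and likewise absent from the other 6 full lists.

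Repeats in these stretches have many near-identical copies, so the place of a single peak there is uncertain. The sources used here do not give the mapping settings. The share of peaks in these stretches, given above, was high in replicates 1 and 2 at 72 h. Without replicate 1, 64 of 457 gained regions lay there in equal-length lists, without replicate 2, 84 of 874 (9.61%), and without replicate 3, 358 of 2037 (17.6%). Of all regions in these runs, 3.20, 2.70 and 3.82% lay there. Lists were cut to the shortest that remained, which was 51017 peaks without replicate 2, so that run is not on like lists. In full lists the share of gained regions was 12.2% without replicate 1, 8.38% without replicate 2 and 30.6% without replicate 3 at 72 h, and 13.5% without replicate 3 at 24 h. Of all regions in these full-list runs, 2.10, 2.05, 2.86 and 2.78% lay there, in the same order. Leaving out the stretches, an alternative added after seeing the data, kept 189 gained regions and 422 lost regions. What sets these libraries apart was not tested.

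The remaining named gained regions lay mostly inside genes or between them. The longest, 4893 bases at chr10:1235363-1240255 within ADARB2, a gene of the RNA-editing family, had -log10 p of 7.08, 10.8 and 8.11 at 72 h, against 5.04, 4.74 and 6.28 in the full lists at 24 h. It was thus listed at both times and gained in the shortened lists alone. A region of 2107 bases at chr4:183850468-183852574 within STOX2 had no peak in replicate 1 at 24 h. The region at chr16:89042524-89042759 had its highest value in replicate 2, with -log10 p of 9.02, 41.7 and 10.4 at 72 h, against 4.99 in the 1 list at 24 h that held it.

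The strongest lost region was chr18:47853273-47853380, 108 bases that lie within SMAD2 and overlap MTCO2P2, a nuclear pseudogene copy of the mitochondrial gene MT-CO2. No library at 72 h listed it, against -log10 p of 285, 190.3 and 284 at 24 h and of 353, 202 and 254 in untreated libraries. At 24 h it was among the best 0.0384% of peaks in every list. A second, chrX:55183240-55183558 over LOC101060042 and SNORA109, was listed by no library at 72 h, with -log10 p of 71.2, 74.3 and 71.0 at 24 h and peaks in 2 of 3 untreated libraries. Both are presence or absence in all 3 libraries of each time, with values far above the -log10 p of 3.73 to 6.58 at which the equal-length lists ended.

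Nuclear copies of mitochondrial genes were then looked at together, a choice made after seeing the region over MTCO2P2. RefSeq names 466 such pseudogenes on the chromosomes used, and 20 merged regions of the full lists overlapped them, of which 10 were listed by all 6 libraries, 0 were gained and 1, that over MTCO2P2, was lost. Among the best 100 peaks of each library, 9, 8 and 10 lay on them at 72 h, against 16, 12 and 11 at 24 h, and 17, 16 and 13 in untreated libraries. These counts include the region over MTCO2P2 that prompted them, which 24 h and untreated libraries listed and 72 h libraries did not, so no test is given. Over full lists 13, 14 and 14 peaks lay on them at 72 h, against 17, 17 and 15 at 24 h, again with that region counted. Reads of mitochondrial DNA and of these copies can be near-identical, and the sources used here do not say how such reads were placed, so they cannot be told apart. The RNA of MT-CO2 itself averaged 1226 ± 78.8 TPM at 72 h and 3857 ± 134 TPM at 24 h (SD, n = 3 each), and the summed mRNA of 13 mitochondrial genes was 9314, 10975 and 11065 TPM at 72 h, against 27326, 28244 and 28449 TPM at 24 h. In untreated libraries that sum was 72738, 67069 and 73935 TPM. These RNA values do not give the amount of mitochondrial DNA, and the part of mitochondrial DNA reads in the ATAC-seq values was not tested.

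The other named lost regions were weaker. At chr6:44100129-44100309, between genes, -log10 p was 5.02 in replicate 3 at 72 h with no peak in the other 2, against 11.5, 9.39 and 15.1 at 24 h. The region at chr3:57752488-57752605, 3704 bases from the start of SLMAP, was in no list at 72 h and in all 3 at 24 h, with 7.18 to 16.8 in the weakest and strongest of them. The longest lost regions lay in TONSL, TANC2, SEL1L3, KIF13B and AIF1L, had 942 to 1234 bases and were each under H3K4me3 in all 3 THC libraries. Each of these 5 had a peak in the full lists of replicates 1 and 3 at 72 h and none in that of replicate 2. At TANC2 those peaks had a -log10 p of 4.22 and 5.66, against 5.74, 5.49 and 6.95 at 24 h, so the values overlapped.

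At the level of genes, few starts were gained or lost. A start window reached 1000 bases to either side of a RefSeq gene start, and 27195 genes had one. In equal-length lists 11 genes (0.0404%) had a window gained at 72 h and 33 (0.121%) a window lost, and in full lists 9 (0.0331%) and 40 (0.147%). Among 10162 genes with both a start window and RNA tested by limma, 76.6% had a window listed by all 6 equal-length lists and 5.97% one listed by none.

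RNA of many genes differed between the times. Of 13753 genes tested with limma on log2(TPM + 1), 54.9% were higher at 72 h than at 24 h and 17.8% lower, at a Benjamini-Hochberg adjusted p of 0.05, and 8.85% rose and 1.95% fell at least 2-fold. The median change of all genes was 0.26 on the log2 scale, and with each library centred on its median the counts became 4176 up and 5217 down, in place of 7546 and 2445. Of 784 genes with a start window whose RNA rose at least 2-fold, 2 had a gained window, 1 a lost one, 67.3% a window listed by all 6 and 14.5% one listed by none. Of 148 genes whose RNA fell at least 2-fold, 0 had a gained window, 1 a lost one, 64.2% a window listed by all 6 and 8.11% one listed by none. These counts are from equal-length lists. Over all 10162 tested genes with a start window, 9 (0.0886%) had a gained window there and 17 (0.167%) a lost one.

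RNA of genes with a called region at the start moved both ways. In equal-length lists 33 genes with a lost region were tested, of which 18 rose (54.5%) and 8 fell (24.2%), near the background of 54.9% and 17.8%. A further 13 genes with a gained region were tested, of which 5 rose and 3 fell. In full lists 18 genes with a lost region had 11 up and 5 down, and 1 gene with a gained region, CCL3, went down. Their median RNA change was 0.18 at lost and 0.12 at gained regions of equal-length lists, against 0.26 over all genes.

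PADI1, a peptidylarginine deiminase that converts arginine in keratins and other proteins to citrulline, lost a start region and most of its RNA. The region at chr1:17204985-17205195 spans the gene start. It was in no full list at 72 h, against -log10 p of 5.95, 4.71 and 4.33 at 24 h, and in 1 of 3 untreated libraries with 3.68. In equal-length lists 1 library at 24 h held it, so it was called in full lists alone, and no H3K4me3 library had a peak there. Its RNA was 11.4, 12.4 and 12.5 TPM at 72 h, against 113, 108 and 102 TPM at 24 h, and 116, 119 and 122 TPM in untreated cells. All 3 libraries at 72 h lay below all others, with a log2 change of -3.05 on the log2(TPM + 1) scale (limma, adjusted p = 4.48e-10).

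MAB21L4, a protein of differentiating epithelium, also had a lost region and lower RNA. The 199 bases at chr2:240896084-240896282 span its start and lie under H3K4me3. At 72 h the sole peak was in replicate 3, with -log10 p of 4.22, against 6.24, 5.07 and 6.68 at 24 h. RNA was 9.34, 9.00 and 9.62 TPM at 72 h, against 38.4, 32.8 and 31.9 TPM at 24 h (log2 change -1.77, limma adjusted p = 5.74e-08). Untreated cells had 3.23, 3.01 and 3.05 TPM, so the level at 72 h lay between those of 24 h and of untreated cells, although all 3 untreated libraries listed the region.

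In 3 further genes a region was lost in equal-length lists and the RNA was lower at 72 h. PHLDB2, which anchors microtubules at the cell edge, had 16.9, 17.1 and 16.9 TPM at 72 h, against 34.1, 38.8 and 36.1 TPM at 24 h (log2 change -1.05, limma adjusted p = 3.05e-07). Its lost region, chr3:111860167-111860751, lay 340 bases from 1 of its 4 starts, and a start window of the gene was listed by all 6 libraries. The full list of replicate 3 at 72 h held a peak in that region, with -log10 p of 5.74, against 6.63, 5.97 and 7.64 at 24 h. ABL2, a tyrosine kinase that binds actin, averaged 19.1 ± 1.91 TPM at 72 h and 29.5 ± 1.25 TPM at 24 h (log2 change -0.61). NEDD4L, a ubiquitin ligase of epithelial sodium channels, averaged 62.0 ± 2.30 TPM at 72 h and 94.0 ± 1.72 TPM at 24 h (log2 change -0.59). At ABL2 the peak at 72 h was missing in replicate 2 and had a -log10 p of 4.39 and 5.71 in replicates 1 and 3, against 6.22, 9.26 and 8.04 at 24 h. At NEDD4L the full list of replicate 3 at 72 h held a peak with 5.60, against 7.80, 7.69 and 7.71 at 24 h. All 3 untreated libraries listed each of these regions. Untreated RNA averaged 31.9 TPM for PHLDB2 and 87.9 TPM for NEDD4L, but 11.1 TPM for ABL2, below its level at both times.

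More of the named genes with a lost region had higher RNA at 72 h. Named genes with a called region come from those that limma called, of which 7546 rose and 2445 fell. A majority of rises was therefore the background. FRMD8, a scaffold that stabilises the sheddase complex of iRhom and ADAM17, had 15.3, 14.2 and 14.9 TPM at 72 h, against 5.39, 4.80 and 5.23 TPM at 24 h (log2 change 1.37, limma adjusted p = 2.83e-07). Its start region at chr11:65386490-65386683 had 1 peak at 72 h, in replicate 3 with -log10 p of 5.63, against 6.78, 6.12 and 10.2 at 24 h. Thus fewer lists held the region where the RNA was higher. NCOA7 and VWA1, called in full lists, rose by 1.07 and 0.73 on the log2 scale. The lost region of NCOA7 had 109 bases, 741 bases from a start, and a start window of the gene was listed by all 6 libraries. PIP5K1B, ARVCF and LINC01515, called in equal-length lists, rose by 0.79, 0.58 and 0.83, and limma no longer called ARVCF when libraries were centred on their median (adjusted p = 0.11). C2, a complement component, rose to 2.44 ± 0.469 TPM at 72 h, against 0.413 ± 0.235 TPM at 24 h, and its region also overlapped a start window of the neighbouring gene EHMT2.

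GPX8, a glutathione peroxidase of the endoplasmic reticulum, was the 1 named gene called lost in both kinds of list. The region of 144 bases at chr5:55161003-55161146 lies 832 bases downstream of the start. It was in no list at 72 h, against -log10 p of 6.98, 5.72 and 8.89 at 24 h, and in all 3 untreated libraries, while 2 of 3 libraries at 72 h had another peak in the start window. RNA averaged 74.8 ± 5.42 TPM at 72 h and 44.8 ± 3.35 TPM at 24 h (SD, n = 3 each; log2 change 0.73, limma adjusted p = 8.43e-06). DDX5, an RNA helicase, averaged 837 ± 44.0 TPM at 72 h and 521 ± 35.6 TPM at 24 h (log2 change 0.69). PDIA6, a disulfide isomerase of the unfolded protein response, averaged 266 ± 4.44 TPM at 72 h and 242 ± 9.29 TPM at 24 h (log2 change 0.14, limma adjusted p = 0.00897), and this sign turned to -0.16 with centred libraries. For DDX5 and PDIA6 the lost region was 1 of several peaks near their starts, and each had a start window that all 6 libraries listed.

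CCL3, a chemokine of inflammation, had the gained region of full lists and lower RNA. The 661 bases at chr17:36088596-36089256 begin 442 bases downstream of a start and had -log10 p of 4.28, 4.46 and 5.08 at 72 h, with no peak at 24 h, and all 3 untreated libraries listed them. RNA was 0.254, 0.203 and 0.371 TPM at 72 h, against 6.32, 6.76 and 7.09 TPM at 24 h (log2 change -2.60, limma adjusted p = 2.70e-08), and it was 0.0609, 0 and 0 TPM in untreated cells. CCL3 has near-identical copies and an antisense gene, so its values are uncertain. The peak was thus listed where the RNA was low and not where it was high.

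PHF10, the SWI/SNF subunit, was the 1 member of any gene list whose start window was gained. Its region, chr6:169723427-169724833, had -log10 p of 6.35, 4.31 and 6.05 at 72 h, against 4.88, 5.00 and 6.36 in the full lists at 24 h, so all 6 lists held it and the call came from the length cut. RNA was 34.6, 35.2 and 32.3 TPM at 72 h, against 15.8, 16.8 and 15.7 TPM at 24 h (log2 change 1.04, limma adjusted p = 1.84e-07), and 44.8, 48.0 and 44.1 TPM in untreated cells. ZSCAN29, a zinc finger protein, averaged 10.5 ± 1.54 TPM at 72 h and 4.09 ± 0.434 TPM at 24 h (log2 change 1.17). Its region had -log10 p of 4.55, 4.98 and 6.63 at 72 h, against 5.19, 4.07 and 6.21 in the full lists at 24 h. TRAPPC6B, of a vesicle tethering complex, averaged 28.8 ± 1.62 TPM at 72 h and 15.4 ± 0.778 TPM at 24 h (log2 change 0.86). MAGEE1 and the cell surface proteoglycan GPC4 rose by 0.67 and 0.52, while NIPSNAP1, a mitochondrial protein, and SMAGP fell by 0.62 and 0.41. All 6 full lists also held the regions at ZSCAN29, TRAPPC6B, MAGEE1 and GPC4. At NIPSNAP1 and SMAGP, 2 of 3 full lists at 24 h held the region, so these calls too came from the length cut.

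The region at the IFITM3 start was called through its -log10 p, so its values are a description. The 2152 bases at chr11:320316-322467 had -log10 p of 9.55, 22.7 and 6.98 at 72 h, against 5.33, 4.78 and 6.40 in the full lists at 24 h and 7.74, 6.40 and 8.28 in untreated libraries. Replicate 2, the shortest list, ranked it among its best 1.34% of peaks. RNA went the other way, with 265, 249 and 286 TPM at 72 h, against 363, 287 and 301 TPM at 24 h (log2 change -0.24, limma adjusted p = 0.0212). That limma call was lost without RNA replicate 2 at 72 h (log2 change -0.19, adjusted p = 0.0807) or replicate 1 at 24 h (log2 change -0.14, adjusted p = 0.054), and with no filter on low values (limma adjusted p = 0.0633). IFITM3 has near-identical relatives and an antisense gene, so its RNA is uncertain.

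**Figure D5:**
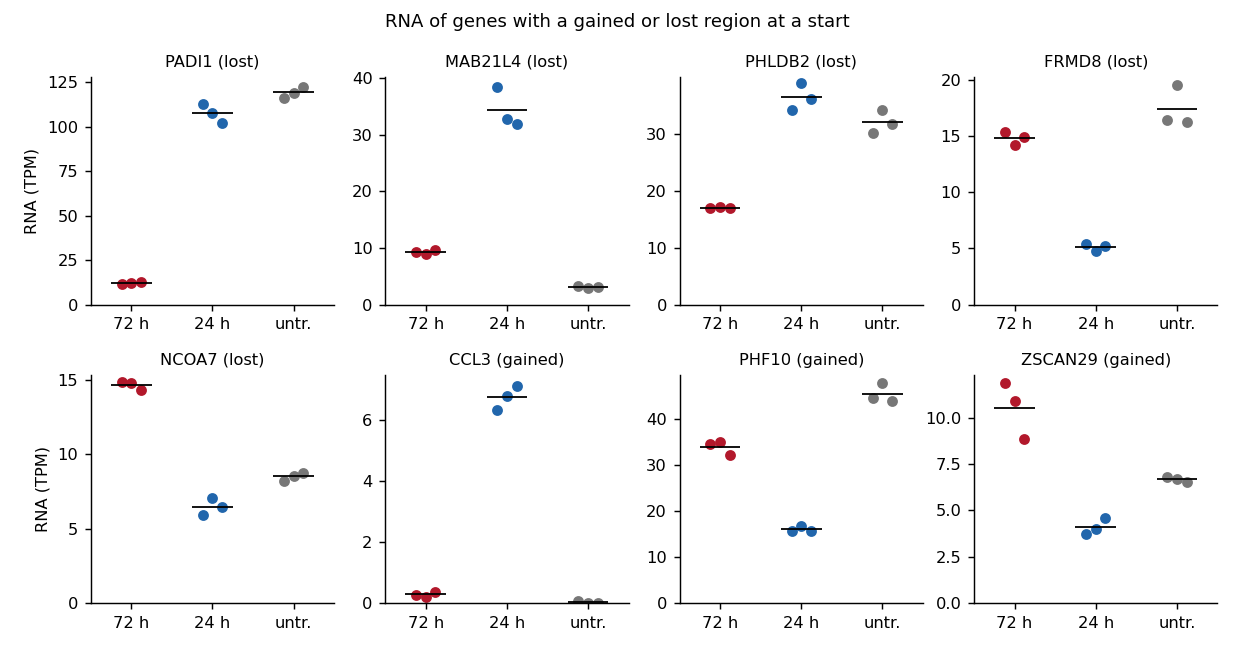
RNA of 8 named genes (TPM, linear axes from 0) with a region lost or gained at a start, in each library (points) with the group mean (line), at 72 h, at 24 h and in untreated cells. PADI1, MAB21L4 and PHLDB2 are lower at 72 h than at 24 h and FRMD8 and NCOA7 higher, all with a lost region, while CCL3 is lower and PHF10 and ZSCAN29 are higher with a gained one. The regions of PHF10 and ZSCAN29 were in every full list of both times.

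Of the lipid and stress genes named in every case, those with a RefSeq start here had no gained or lost start window, and FASN had none to call. All 3 libraries at 72 h and all 3 at 24 h listed start windows of ARID1A, SREBF2, SCD, DDIT3 and CDKN1A. Inside ARID1A but beyond its start window, chr1:26697586-26698347 was gained in equal-length lists and lay under H3K4me3 in all 3 THC libraries. The full lists of replicates 2 and 3 at 24 h held peaks there, and that of replicate 1 did not. SREBF1, the regulator of fatty acid synthesis, was listed by 2 of 3 libraries at 72 h and 3 of 3 at 24 h. The window of ATF3, a stress-induced transcription factor, at the start that the RefSeq promoters hold was in no ATAC-seq list, although its RNA averaged 56.8 ± 5.73 TPM at 72 h and 63.4 ± 3.94 TPM at 24 h. RNA of ARID1A was 32.9, 32.3 and 36.1 TPM at 72 h, against 20.1, 17.6 and 18.2 TPM at 24 h (log2 change 0.82, limma adjusted p = 1.69e-06). CDKN1A, the cell cycle inhibitor p21, had 140 ± 8.30 TPM at 72 h and 219 ± 7.30 TPM at 24 h (log2 change -0.64), and DDIT3 moved by -0.48. FASN, the fatty acid synthase, had 24.8 ± 0.945 TPM at 72 h and 22.9 ± 5.95 TPM at 24 h (SD, n = 3 each; log2 change 0.14, limma adjusted p = 0.429). SCD, the fatty acid desaturase, had 8.59 ± 0.701 TPM at 72 h and 8.63 ± 0.338 TPM at 24 h (log2 change -0.01, limma adjusted p = 0.904).

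The gene lists were described by their RNA calls and by the listing of their starts, and 80.1% of all tested genes with a start had a window listed by all 6 full lists. Of 20 cholesterol synthesis genes 8 rose and 4 fell in RNA, against 54.9% and 17.8% of all genes, and all 15 with a start window were listed by all 6 full lists. Of 20 unfolded protein response genes 15 rose and 0 fell, with a median log2 change of 0.46, and 18 of 19 windows were listed by all 6. The S phase list had 18 up and 1 down of 25 tested, with 19 of 21 windows listed by all 6. Of 18 tested interferon response genes 4 rose and 12 fell (median -0.40), and 9 of 16 windows were listed by all 6. Of 7 tested genes of the urokinase system and metalloproteinases 1 rose and 5 fell (median -0.79), and 1 of 9 windows was listed by all 6. In the YAP and TEAD target list 6 rose and 11 fell of 20, with 9 of 14 windows listed by all 6. The SWI/SNF list had 13 up and 5 down of 25 tested, with 17 of 22 windows listed by all 6 full lists. No window of the 15 gene lists was gained or lost in full lists, and in equal-length lists PHF10 was the sole one.

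Epithelial marker genes were expressed at both times. All 10 epithelial markers averaged at least 1 TPM over the THC libraries, with a summed level of 3762 to 3998 TPM at 72 h and 5087 to 5278 TPM at 24 h. Of 21 genes of epithelial adhesion and keratins 0 rose and 14 fell, against 54.9% and 17.8% of all genes, and 8 of 8 start windows were listed by all 6 full lists, against 80.1% of all. Of 6 endometrial lineage markers 2 averaged at least 1 TPM. The summed level of 8 stromal markers was at most 1.38 TPM at 72 h and 1.37 TPM at 24 h, that of 6 immune markers at most 0.533 and 0.886 TPM, and that of 4 endothelial markers at most 0.357 and 0.0669 TPM.

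Regions were also set beside the untreated lists. With all peaks of 9 libraries merged into 239554 regions, 21415 were listed by all 9. There were 313 regions listed by all 3 untreated libraries and all 3 at 24 h and by none at 72 h, and 72 listed by all 3 at 24 h and by no other library. In the other direction 78 were listed by all 3 at 72 h and by no other library, and 32 by all 3 untreated libraries and all 3 at 72 h but by none at 24 h. A further 871 were listed by all 3 untreated libraries and by no THC library, and 14 by all 3 at 24 h and all 3 at 72 h alone. The full lists ran from 38495 peaks in replicate 2 at 72 h to 150884 in untreated replicate 1. A region is more easily missing from a short list, so the counts also depend on list length. The counts share their libraries, so they are given side by side with no test.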

How the data were processed

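The authors deposited RNA-seq values in TPM, which keep no depth, and broad peak lists with a fold enrichment (ratio), -log10 p, -log10 q and a score per peak. The submitters' processing notes name MACS2 2.2.7.1, MACS3, Bowtie2, Picard, SAMtools, FastQC, Trim Galore, Salmon and the build GRCh38, without roles, and the caller of the ATAC-seq lists is not given in these sources. Peaks were listed per library, and the lowest -log10 q was 1.3 in these 6 lists.

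Peaks on chromosomes 1 to 22 and X were merged where they overlap (Python 3.11.15, pandas 2.3.3, scipy 1.17.1). Gene starts are those of RefSeq GRCh38.p14, with none on chromosome 8. RNA was tested with limma 3.58.1 (R 4.3.3, trend) on log2(TPM + 1) over 9 libraries, for 13753 genes averaging at least 1 TPM, with Benjamini-Hochberg adjustment. The scripts were tested on simulated data. For the rank fit that check used a large shift, so it does not tell whether smaller changes would be found.

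Named genes are those called by limma with a gained or lost region within 1000 bases of a start, ranked by RNA change (at most 10 per class, 5 for full lists), list members with such a region, and 8 genes named in every case. Named regions are the 5 longest and 5 best-ranked of each class. The members and lists were chosen with earlier results of these data known. Replicate numbers are those of the labels, and the numbers in the names of the deposited ATAC-seq lists differ for some libraries. Deviations of same-numbered ATAC-seq libraries correlated at -0.20, 0.03 and 0.21, so numbers were not used as pairs. Motifs were searched in promoters, since no genome was used here.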

Additional observations from a re-analysis of the deposited data

How the results depend on the processing

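Counts of called regions moved with some stricter rules. When at least 0.5 of a region had to be covered, 275 were gained and 589 lost in full lists, and 225 and 353 in equal-length lists, within 1.5 times. With regions of at least 500 bases, 150.0 were gained and 47 lost in full lists, and 110.0 and 25 in equal-length lists. With a -log10 q of at least 3, 98 were gained and 412 lost in full lists, and 109 and 189 in equal-length lists. Leaving out 1 library, which lowers the number that must list a region, gave 339 to 1300 gained and 863 to 4821 lost regions in full lists, and 338 to 2037 and 797 to 2272 in equal-length lists. The highest counts came without replicate 2 (1300) or replicate 3 (4821, 2037 and 2272) at 72 h. With a start window of 500 bases, starts were touched by 0.794% of gained, 4.28% of lost and 38.7% of shared regions in full lists and 42.8% of shared regions in equal-length lists. With 2500 bases they were touched by 10.4% of lost and 43.0% of shared regions in full lists, and 14.7% and 47.1% in equal-length lists. The covered length, 0.996 Mb higher at 72 h, became -1.001 Mb with the -log10 q of 3. For these, apart from windows and left-out libraries, the cause was not tested.

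Centring RNA on the median gave 4176 genes up and 5217 down, and leaving out 1 library 7123 to 7325 up and 2221 to 2402 down. At regions of full lists 0 genes were up and 1 down where gained, and 11 up and 5 down where lost. PDIA6 turned to -0.16 with centring, and SCD ranged from -0.0585 to 0.0472 without 1 library, with 0.02 without replicate 3 at 24 h. With the replicate block 7566 genes were up and 2466 down, and no named gene changed its call. Of 341 checks of named genes, 330 kept their call and sign. The rank fits called 0 regions in every setting run. Depth is unknown, so an unlisted region may be open below the caller's threshold.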
